A study of Mus musculus with 4 samples.

Results

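The genes described here are 9 members of the axis of neutrophil chemoattractants and colony-stimulating factors, namely the chemokine genes Cxcl1, Cxcl2, Cxcl3 and Cxcl16, the growth factor genes Csf1 and Csf2, and the receptor chain genes Csf2ra, Csf2rb and Csf2rb2. They were chosen by symbol, and all 9 were found among the 14082 genes of the count tables and passed the filter on low counts that left 13358 genes for testing. The data are bulk RNA-seq of ovalbumin-specific CD8 tumour-infiltrating lymphocytes, sorted from subcutaneous E.G7 tumours in mice aged 6 to 10 weeks. The E.G7 line was made from the mouse T lymphoma EL4 by adding ovalbumin. Tumours were grown in hosts of the genotype Cd8-cre Smad4-fl/fl (labelled KO, 2 libraries) and in hosts of the genotype Smad4-fl/fl with no Cre (labelled WT, 2 libraries), so that every host carried the floxed allele. Cd8-cre acts in cells of the CD8 lineage, so myeloid cells and tumour cells of a KO host need not lose Smad4. Whether replicate libraries stem from separate or pooled animals is not stated in the labels, and each p-value therefore covers just the variation among these libraries, which could be technical.

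CXCL1, CXCL2 and CXCL3 are small secreted chemokines that bind the receptor CXCR2 and draw neutrophils out of the blood. CXCL16 is made as a membrane-anchored chemokine, and its receptor CXCR6 is carried by activated T cells. CSF1 keeps macrophages alive through the receptor CSF1R, while CSF2 (also called GM-CSF), a product of activated lymphocytes among other cells, acts on myeloid cells through an alpha chain (Csf2ra) and a beta chain that is shared with the receptors for interleukins 3 and 5 (Csf2rb). Mice have an additional beta chain, encoded by Csf2rb2, which serves interleukin 3.

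The libraries held 25806382 and 26218277 counts in those labelled KO and 24366540 and 25790107 in those labelled WT. Smad4 itself had 779 and 1088 counts in the libraries labelled KO and 752 and 736 in those labelled WT, a log2 fold change of 0.19 (adjusted p = 0.397 by the quasi-likelihood test of edgeR, with p-values adjusted by Benjamini-Hochberg over all tested genes as in every later adjusted p). No loss of Smad4 reads was thus seen under the KO label. These counts cover the whole gene and all cells in a library, so they cannot show whether CD8 cells lost part of Smad4. KO and WT below name the labels alone. The label names CD8 T cells, and Cd8a was read at 63.8 and 65.8 FPKM in KO and 125 and 121 FPKM in WT libraries. The macrophage complement gene C1qa stood higher per length in each library, at 753 and 761 FPKM in KO and 814 and 810 FPKM in WT, and the neutrophil gene S100a8 was at 895 and 902 FPKM in KO and 206 and 220 FPKM in WT. Transcripts of myeloid cells were therefore abundant in libraries labelled as T cells, and no member can be assigned to a cell type from these tables. In bulk samples, a change in how many cells of a type were present and a change in RNA per cell cannot be told apart.

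Across the axis, 3 of 9 members were higher in the libraries labelled KO (Csf1, Cxcl3 and Cxcl2), 0 were lower and 6 did not pass. At an unadjusted p under 0.05 there were 6 members higher and 0 lower, beside 16.2% of all tested genes higher and 32.7% in either direction, and DESeq2 and limma-voom also called 0 lower. Over all tested genes, 21.2% were called in either direction and 10.1% were called higher (edgeR, adjusted p under 0.05). These shares were 11.2% and 5.18% without WT replicate 1, with 4 members called higher, and 12.8% and 6.08% without WT replicate 2, with 3 members called higher. Scaled to library totals alone, without TMM factors (the composition correction used throughout), 6 members were called higher, and over all genes the share of higher among all calls went to 67.5%, against 47.9% with TMM. The median log2 fold change was 0.18 over the 9 members and -0.0040 over all tested genes. In 8 of the 9 the 2 KO libraries lay wholly on one side of the 2 WT libraries, a separation that 59.8% of all tested genes showed.

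**Figure D1:**
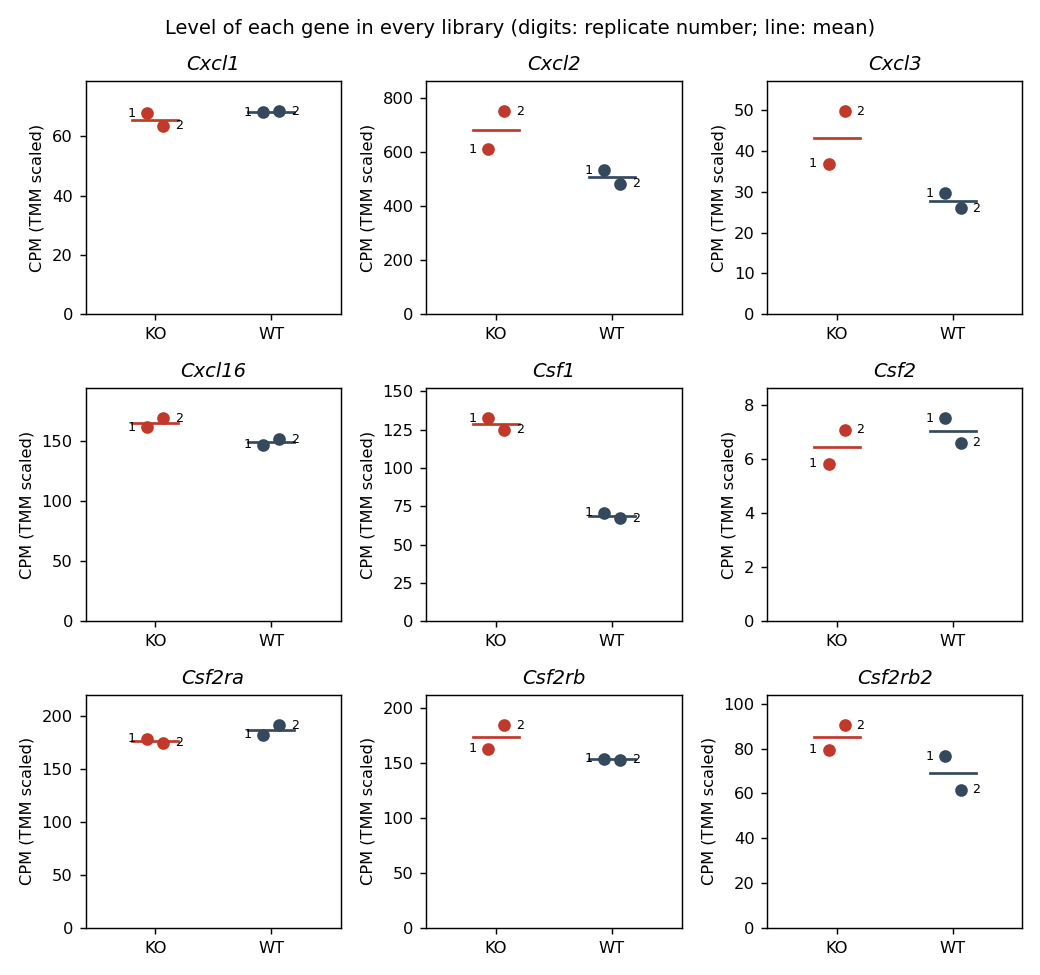
TMM-scaled CPM (counts normalised to library size, y axis from 0) of the 9 genes in the KO and WT libraries, with 1 point per library, its replicate number beside it and a line at the group mean. Csf1 separates most widely, at 132 and 125 CPM in KO and 70.7 and 67.1 CPM in WT, while the Csf2 points overlap.

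Per gene length, the axis was led by Cxcl2. Its deposited FPKM was 287 and 351 in KO libraries and 248 and 225 in WT libraries, at percentile 98.5 or higher of all listed genes in each library. Csf2ra came next (60.3 and 58.8 FPKM in KO, 61.0 and 64.3 FPKM in WT), then Cxcl16 (51.8 and 54.1 FPKM in KO, 46.7 and 48.4 FPKM in WT) and Cxcl1 (35.0 and 32.8 FPKM in KO, 34.9 and 35.2 FPKM in WT). Those 4 places were the same in each library, and neighbours among them did not overlap in FPKM. Csf2rb followed at 21.7 and 24.5 FPKM in KO and 20.3 and 20.2 FPKM in WT. Csf1 took places 5 and 6 of the 9 in KO libraries, at 24.3 and 22.9 FPKM, but place 7 in both WT libraries, at 12.9 and 12.2 FPKM, below Csf2rb2 in the same library. Cxcl3 and Csf2 were last, with Cxcl3 at 10.2 and 13.7 FPKM in KO and 8.15 and 7.16 FPKM in WT, and Csf2 at 7.06 and 8.55 FPKM in KO and 9.03 and 7.96 FPKM in WT; in WT the ranges of these 2 genes overlapped. FPKM lengths were the merged exons of GENCODE M21, and for Cxcl1, Cxcl2 and Cxcl3 these take in retained introns (1875, 2068 and 3498 bases, against a longest coding transcript of 953, 1859 and 1016 bases), so their FPKM understates the level of the spliced messenger RNA, most for Cxcl3. Retained introns are also annotated for Cxcl16, Csf1, Csf2ra and Csf2rb, where the merged exons span 3021, 5281, 2871 and 7277 bases and the longest coding transcript 2699, 4176, 1849 and 4900 bases, so the order of these genes depends on the lengths used.

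**Figure D2:**
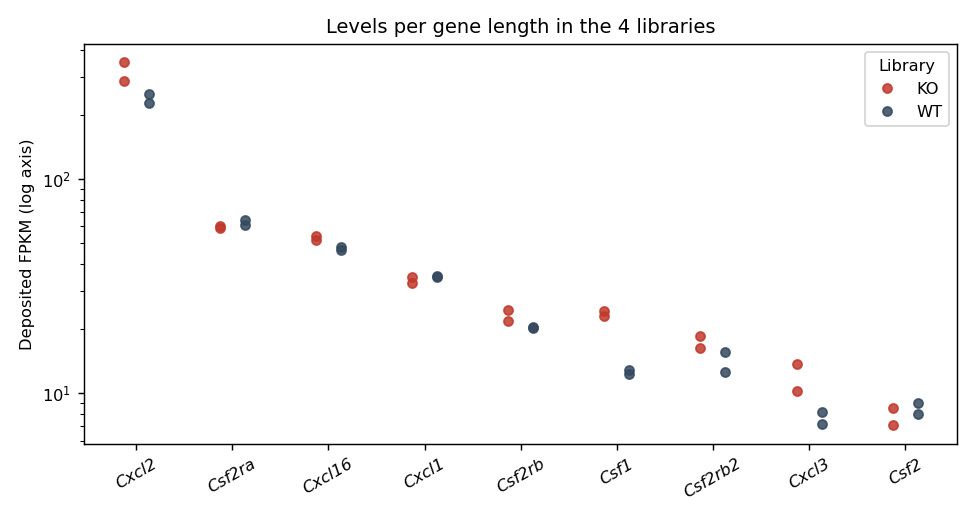
Deposited FPKM (log axis) of the 9 genes, ordered by their mean over the 4 libraries, with 1 point per library and KO left of WT. Cxcl2 lies above the rest in each library, from 225 to 351 FPKM, and Csf2 and Cxcl3 lie lowest, with Cxcl3 at 13.7 FPKM in KO replicate 2 the highest of their points.

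Of the genes for CXCR2 ligands, Cxcl2 and Cxcl3 were higher in the libraries labelled KO and Cxcl1 was not called. Cxcl2 had 611 and 752 CPM in KO and 534 and 483 CPM in WT, and Cxcl3 had 36.8 and 49.6 CPM in KO and 29.7 and 26.0 CPM in WT. Both KO libraries stood above both WT libraries for these genes, and KO replicate 2 was the highest of the 4 in each. Cxcl2 was 1.34-fold higher (681 ± 99.3 CPM in KO and 509 ± 36.0 CPM in WT, SD, n = 2 each), with a log2 fold change of 0.42 ± 0.083 (SE; edgeR adjusted p = 0.00324). Cxcl3 was 1.55-fold higher (43.2 ± 9.08 CPM in KO and 27.8 ± 2.62 CPM in WT), with a log2 fold change of 0.64 ± 0.14 (SE; edgeR adjusted p = 0.00608). Without KO replicate 2 the log2 fold changes were 0.26 for Cxcl2 and 0.40 for Cxcl3, and without KO replicate 1 they were 0.56 and 0.84. With 1 library left in a group its own spread is not measured, so effect sizes alone are given here. Calls and adjusted p with a library left out, given elsewhere for other genes and for counts, rest on spread measured in the other group. Over the alternatives that kept all 4 libraries, adjusted p ran from 9.6e-06 (edgeR with a replicate block) to 0.0496 (DESeq2) for Cxcl2. For Cxcl3 it ran from 7.81e-06 (edgeR with a replicate block) to 0.00947 (limma-voom). Cxcl1 had 67.7 and 63.7 CPM in KO and 68.1 and 68.4 CPM in WT, a log2 fold change of -0.055 (95% confidence interval -0.22 to 0.11; edgeR adjusted p = 0.683), and with library totals alone its sign turned to 0.030. That interval takes in neither the estimate for Cxcl2 nor the one for Cxcl3. It leaves out the errors of those 2 estimates, and the fit did not test a difference between genes. In the same libraries the summed level of neutrophil markers was 2.52-fold higher in KO and that of macrophage markers 1.03-fold higher, and their part in these results was not tested.

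Ratios between the 3 genes within a library do not depend on scaling between libraries. Cxcl2 stood at 8.18 and 10.7 times the FPKM of Cxcl1 in KO libraries and 7.11 and 6.40 times in WT libraries. Cxcl3 stood at 0.291 and 0.418 times the FPKM of Cxcl1 in KO libraries and 0.234 and 0.203 times in WT libraries. Both ratios were higher in each KO library than in either WT library, by 1.39-fold and 1.6-fold (two-sided exact permutation test, p = 0.333 for each, the smallest that 2 against 2 libraries allow). The ratio of Cxcl2 to Cxcl3 was 28.1 and 25.6 in KO and 30.5 and 31.5 in WT. The size of each ratio depends on the merged exon lengths, which take in retained introns, most for Cxcl3. Those lengths are the same in every library.

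The genes of the 3 ligands lie on the plus strand of chromosome 5 within 119836 bases (mm10, GENCODE M21), Cxcl3 at 90786103 to 90789600, Cxcl1 at 90891241 to 90893115 and Cxcl2 at 90903871 to 90905938. No listed gene overlaps them. Between Cxcl2 and Cxcl3 some reads could be split, since 126 of 2159 different 50-base words of Cxcl2 transcripts (5.84%) also occur in Cxcl3 transcripts, while Cxcl1 shares none with either. Their promoters are shown because 2 of these neighbours moved together and the third did not, and that of Csf1 because it changed most. The windows run from 250 bases before to 50 bases after the RefSeq start (RefSeq, GRCm38.p6), on the plus strand at chr5:90785851-90786150 for Cxcl3, chr5:90890995-90891294 for Cxcl1 and chr5:90903649-90903948 for Cxcl2, and on the minus strand at chr3:107760420-107760719 for Csf1. Capitals mark every match, on either strand, to a kappaB-type motif (the kind bound by NF-kappaB) or to the TATA motif TATAAA.
Cxcl3: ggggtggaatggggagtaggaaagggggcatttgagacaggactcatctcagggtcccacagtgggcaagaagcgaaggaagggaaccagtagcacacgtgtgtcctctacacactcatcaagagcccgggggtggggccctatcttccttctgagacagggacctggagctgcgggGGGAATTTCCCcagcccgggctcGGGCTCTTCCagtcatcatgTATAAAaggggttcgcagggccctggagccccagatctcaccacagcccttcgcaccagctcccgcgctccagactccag
Cxcl1: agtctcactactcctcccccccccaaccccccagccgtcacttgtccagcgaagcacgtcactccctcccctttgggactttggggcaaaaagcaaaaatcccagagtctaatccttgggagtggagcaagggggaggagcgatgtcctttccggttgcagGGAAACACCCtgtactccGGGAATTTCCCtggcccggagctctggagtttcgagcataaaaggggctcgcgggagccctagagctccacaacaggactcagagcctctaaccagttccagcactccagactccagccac
Cxcl2: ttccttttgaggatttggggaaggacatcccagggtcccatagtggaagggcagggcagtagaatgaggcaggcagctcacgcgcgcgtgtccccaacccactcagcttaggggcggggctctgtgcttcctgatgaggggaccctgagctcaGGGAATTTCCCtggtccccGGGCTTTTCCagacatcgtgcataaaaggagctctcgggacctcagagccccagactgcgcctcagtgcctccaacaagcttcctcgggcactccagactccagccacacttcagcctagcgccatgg
Csf1: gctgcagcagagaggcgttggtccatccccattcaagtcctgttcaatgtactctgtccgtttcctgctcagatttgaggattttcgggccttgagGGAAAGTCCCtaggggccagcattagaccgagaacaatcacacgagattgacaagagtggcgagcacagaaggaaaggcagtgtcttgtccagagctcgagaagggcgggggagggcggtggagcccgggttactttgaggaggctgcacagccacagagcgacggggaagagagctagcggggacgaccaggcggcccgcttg
The run GGGAATTTCCC, in which matches on both strands overlap, was in all 3 CXCR2 ligand promoters, from -73 to -63 in Cxcl3, from -71 to -61 in Cxcl1 and from -97 to -87 in Cxcl2, counted from the RefSeq start. It was in 14 of the 32851 promoter windows of the RefSeq table (0.0426%) and was picked out after these windows were read. The kappaB-type motif was found in 5.56% of all windows and in those of 4 of the 7 members with an entry (Cxcl1, Cxcl2, Cxcl3 and Csf1). TATAAA was in 13.6% of all windows and, among members, in that of Cxcl3. The Cxcl1 and Cxcl2 windows hold the near match cataaa downstream of the shared run. Only exact matches were counted, so a TATA box of another spelling is not shown to be absent. The AP-1 motif TGANTCA (7.81% of windows) and the SMAD motif GTCTAGAC (0.213%) were in 0 of the 7 member windows. For Csf2 the window (chr11:54249850-54250149, minus strand) lies wholly upstream of the GENCODE start at 54249667. The bases next to that start were thus not searched for any motif. The promoter of Cxcl1, which was not called, thus held the same 11-base run as those of Cxcl2 and Cxcl3.

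Cxcl16 was read at 161 and 169 CPM in KO and 147 and 152 CPM in WT libraries, so both KO libraries were above both WT libraries. The log2 fold change of 0.15 ± 0.060 (SE) did not pass (edgeR adjusted p = 0.108), although it did with library totals alone (0.23, edgeR adjusted p = 0.0135; range over all alternatives 0.0135 to 0.457). The gene lies on the minus strand of chromosome 11 from 70453983 to 70459984. Of its merged exons, 18.3% overlap those of Zmynd15 on the opposite strand, which had 698 and 698 counts in KO and 394 and 343 in WT, against 4292 and 4560 for Cxcl16 in KO and 3479 and 3788 in WT, and whether the counting used strand is not known here. Cxcr6, which encodes the CXCL16 receptor, was lower, at 220 and 183 CPM in KO and 384 and 396 CPM in WT (log2 fold change -0.95, edgeR adjusted p = 2.28e-06). Ligand over receptor, in FPKM, was therefore 0.468 and 0.591 in KO libraries and 0.244 and 0.244 in WT libraries. The difference in this ratio was 2.15-fold (two-sided exact permutation p = 0.333, the smallest possible). In the same libraries the summed level of T cell markers in KO was 0.69 times that in WT. Its part in this ratio was not tested.

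Csf1 changed most among the members. It had 132 and 125 CPM in KO libraries (3520 and 3369 counts) and 70.7 and 67.1 CPM in WT libraries (1676 and 1676 counts), with replicates of a group about 1.06-fold apart or less. It was 1.87-fold higher, at 129 ± 5.33 CPM in KO and 68.9 ± 2.60 CPM in WT (SD, n = 2 each), a log2 fold change of 0.90 (95% confidence interval 0.75 to 1.05; edgeR adjusted p = 1.81e-06). Over the alternatives its log2 fold change stayed between 0.86 and 0.99. Here too the neutrophil markers stood 2.52-fold higher. Csf1 lies on the minus strand of chromosome 3 from 107741048 to 107760469 and overlaps no listed gene. The gene for its receptor, Csf1r, had 594 and 628 CPM in KO and 610 and 592 CPM in WT, overlapping groups with a log2 fold change of 0.024 (edgeR adjusted p = 0.805). Csf1 over Csf1r was 0.244 and 0.217 in KO and 0.127 and 0.124 in WT libraries, in FPKM, although 15.1% of the merged exons of Csf1r overlap Hmgxb3 on the opposite strand. Among 10031 genes with a mean of at least 5 CPM, the nearest to Csf1 in centred log2 CPM over the 4 libraries were Slfn4, Arpp21 and Rmi2, at Euclidean distances of 0.046, 0.058 and 0.059, and 8 genes lay within 0.1. The 4 libraries form 2 groups, so any gene with a like group difference lies near.

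Csf2 was the scarcest member in counts, with 155 and 191 in KO libraries and 178 and 165 in WT libraries. That is 5.83 and 7.08 CPM in KO and 7.51 and 6.60 CPM in WT, groups that overlap. Its log2 fold change came to -0.13 (95% confidence interval -0.61 to 0.35; edgeR adjusted p = 0.746), and it turned to 0.0048 without KO replicate 1. That interval holds changes in either direction. Csf2 lies on the minus strand of chromosome 11 from 54247271 to 54249667, and 12.0% of its exon length overlaps the antisense gene Gm12223.

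None of the 3 receptor chain genes passed the test. Csf2ra, the ligand-specific alpha chain, had 179 and 175 CPM in KO and 182 and 191 CPM in WT libraries. Both KO values were the lower ones, but the log2 fold change of -0.082 (95% confidence interval -0.21 to 0.045) did not pass (edgeR adjusted p = 0.369) and its sign turned to 0.0038 with library totals alone. Csf2rb, the shared beta chain, had 163 and 184 CPM in KO and 154 and 153 CPM in WT, and Csf2rb2, the beta chain of the mouse interleukin 3 receptor, had 79.4 and 90.5 CPM in KO and 76.6 and 61.6 CPM in WT. For both beta chains each KO library stood above each WT library, with KO replicate 2 the highest. Their log2 fold changes were 0.18 ± 0.068 and 0.30 ± 0.10 (SE), short of the threshold (edgeR adjusted p = 0.082 and 0.0566). Over the alternatives that kept all 4 libraries, edgeR adjusted p ran from 0.0128 to 0.129 for Csf2rb and from 0.00997 to 0.0632 for Csf2rb2. Without KO replicate 1 the log2 fold changes of Csf2rb and Csf2rb2 were 0.27 and 0.39. Csf2rb2 was at 0.46 without WT replicate 1 and at 0.15 without WT replicate 2, while Csf2rb was at 0.086 without KO replicate 2.

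The alpha chain stood above the shared beta chain per length, by merged exons that take in retained introns of both genes. Csf2ra over Csf2rb was 2.78 and 2.40 in KO libraries and 3.01 and 3.18 in WT libraries, lower in each KO library. Csf2rb over Csf2rb2 was 1.33 and 1.32 in KO and 1.31 and 1.61 in WT, so the balance of the beta chains overlapped between the groups. The beta chain genes lie head to head on chromosome 15, Csf2rb2 on the minus strand from 78282507 to 78305721 and Csf2rb on the plus strand from 78325752 to 78353847, with starts 20031 bases apart. Both values are uncertain as paralogs, since 18.4% of the 50-base words of Csf2rb2 transcripts also occur in Csf2rb and 12.3% the other way, and neither the read length nor the handling of reads that map to several places is stated in the sources used here. Csf2ra lies on the minus strand of chromosome 19 from 61223957 to 61228429.

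**Figure D3:**
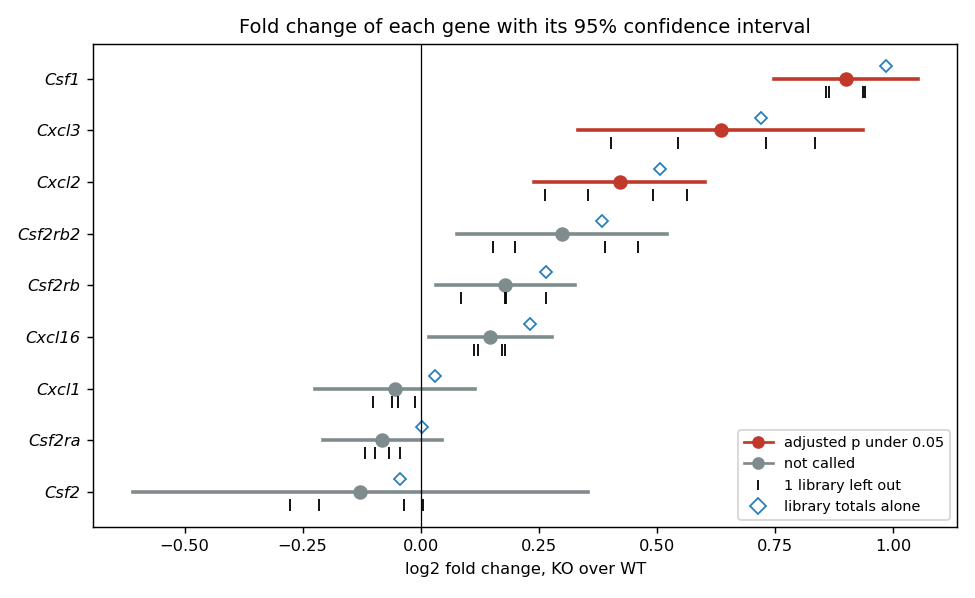
Log2 fold change (KO over WT, x axis) of the 9 genes, with 95% confidence intervals as bars, values with 1 library left out as ticks below and values with library totals alone as diamonds above. Csf1, Cxcl3 and Cxcl2 (red) lie right of 0 under each of these settings, whereas Cxcl1, Csf2ra and Csf2 lie near 0 with a value on each side of it.

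Genes that act with the members were read from 5 lists, and 14 of the 47 tested were higher and 12 lower, with a median log2 fold change of 0.014. In all 55.3% were called, beside 21.2% of all tested genes (10.1% higher and 11% lower). Those lists were drawn up with earlier results of these data known, so the share of 55.3% does not show that the pathway stands apart. Beside them neutrophil markers were higher and T cell markers lower in KO libraries, by the sums given further on.

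Other chemokine and cytokine genes linked to neutrophils (Cxcl5, Ppbp, Pf4, Csf3, Il17a and Il17f) were higher in 4 of 6 tested and lower in 0 (median log2 fold change 1.05; by DESeq2 and limma-voom 4 and 0, and at an unadjusted p under 0.05 none was lower either). Il17f, a cytokine that induces CXCR2 ligands in stromal cells, had 16.4 and 13.7 CPM in KO and 3.63 and 3.92 CPM in WT, 3.98-fold higher (edgeR adjusted p = 1.74e-05). Cxcl5, a further CXCR2 ligand, had 5.60 and 8.26 CPM in KO and 2.74 and 3.64 CPM in WT, 2.17-fold higher (edgeR adjusted p = 0.0142), a call lost without WT replicate 1 or KO replicate 2, where its log2 fold change was 0.93 and 0.81, against 1.12 with all libraries (edgeR adjusted p = 0.118 and 0.0524; lowest over the alternatives 4.86e-05). The platelet chemokine genes Ppbp and Pf4 were 1.32-fold and 1.18-fold higher, with mean levels of 84.1 ± 1.88 and 783 ± 42.8 CPM in KO and 63.6 ± 3.73 and 666 ± 5.0 CPM in WT (SD, n = 2 each; edgeR adjusted p = 0.00279 and 0.00895). Pf4 lost its call without KO replicate 2, at a log2 fold change of 0.18 against 0.23 (edgeR adjusted p = 0.0738; lowest over the alternatives 0.000658). Csf3, which encodes the granulocyte colony-stimulating factor and is named after its values were seen, had only 92 and 47 counts in KO and 26 and 38 in WT and did not pass (edgeR adjusted p = 0.160), except without KO replicate 2 (edgeR adjusted p = 0.015; highest over the alternatives 0.676). Of the other cytokines of these receptors, Il3 was the 1 tested and was not called.

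Of 7 tested receptor genes of the axis, 2 were higher and 1 was lower (median log2 fold change 0.024). The neutrophil receptor genes Cxcr2 and Csf3r were higher, Cxcr2 at 50.8 and 57.2 CPM in KO and 18.4 and 17.3 CPM in WT (3.03-fold, edgeR adjusted p = 6.28e-07) and Csf3r at 237 and 247 CPM in KO and 99.1 and 97.8 CPM in WT (2.46-fold, edgeR adjusted p = 1.49e-08). Cxcr6, described with its ligand, was the lower one, and Csf1r, Cxcr1, Ackr1 and Il3ra did not pass. On the log2 scale Cxcr2 changed by 1.6 ± 0.11 (SE), beside 0.42 for its ligand gene Cxcl2 and 0.64 for Cxcl3, and the difference between these genes was not tested.

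Genes of signal transduction below the beta chain went both ways, with 3 of 15 higher and 7 lower (median log2 fold change -0.035). Stat3, a transcription factor activated by CSF3 and other cytokines, had 521 and 502 CPM in KO and 892 and 863 CPM in WT, 1.72-fold lower (edgeR adjusted p = 4.94e-07). Socs3, a feedback inhibitor of cytokine receptors, was higher at 249 and 259 CPM in KO and 214 and 198 CPM in WT (log2 fold change 0.30, edgeR adjusted p = 0.00331). Ptpn6, a phosphatase that dampens receptor signals, and Socs2 were higher by 0.22 and 0.49 on the log2 scale, while the kinase gene Lyn and the transcription factor gene Irf4 changed by -0.26 and -0.45 (edgeR adjusted p = 0.0101, 0.0111, 0.0126 and 0.0114). Without WT replicate 1, where calls over all genes also fell to 11.2%, 1 gene of the list was called higher and 1 lower. With library totals alone 4 were higher and 2 lower, and without KO replicate 2 the count of higher genes was 2. The 4 genes Ptpn6, Socs2, Lyn and Irf4 lost their calls without WT replicate 1 (edgeR adjusted p = 0.0908, 0.082, 0.162 and 0.123), with log2 fold changes of 0.20, 0.47, -0.20 and -0.39 there. Ptpn6 lost its call also without KO replicate 2 (edgeR adjusted p = 0.0552) and Lyn with library totals alone (edgeR adjusted p = 0.072), whereas Stat3 and Socs3 kept theirs under each alternative.

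Inducers and messenger RNA decay factors of CXCL and CSF genes were higher in 5 of 18 and lower in 4 (median log2 fold change -0.0010). Il1b, which encodes the inflammatory cytokine interleukin 1 beta, an inducer of CXCR2 ligands, had 642 and 676 CPM in KO and 387 and 373 CPM in WT, 1.73-fold higher (edgeR adjusted p = 5.66e-07). Il17ra, a receptor chain for IL-17 cytokines, was 1.45-fold higher and Zfp36, which promotes decay of AU-rich messenger RNAs including that of Csf2, was 1.32-fold higher (edgeR adjusted p = 9.8e-05 and 0.000127). Lower were Nfatc1 and Nfatc2, transcription factors that drive Csf2 in activated T cells, by 2.24-fold and 1.65-fold, and Tnfaip3, an inhibitor of NF-kappaB, by 1.61-fold (edgeR adjusted p = 1.35e-07, 0.00356 and 6.34e-06). Nfatc1 had 93.0 and 98.3 CPM in KO and 202 and 226 CPM in WT, with no overlap. The NF-kappaB genes Nfkb1 and Rela did not pass, with log2 fold changes of 0.085 and -0.11 (named after their values were seen). Without WT replicate 1 the list had 3 higher and 3 lower, and without KO replicate 1 it had 5 higher and 6 lower.

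**Figure D4:**
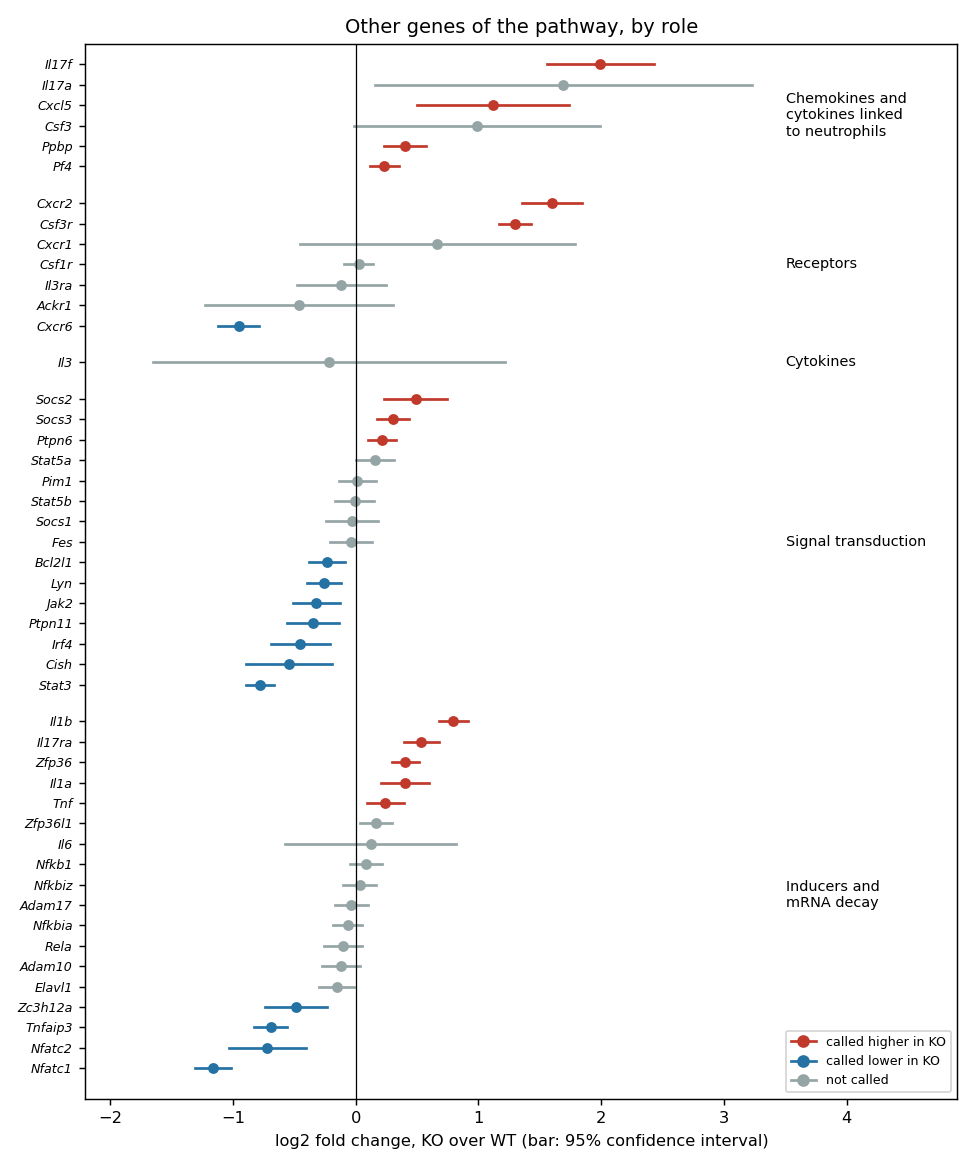
Log2 fold change (KO over WT, x axis) of the 47 tested genes of the 5 lists, grouped by role, with 95% confidence intervals as bars. Il17f, Cxcr2 and Csf3r lie farthest to the right among called genes, and Nfatc1 and Cxcr6 farthest to the left.

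Markers of several cell types moved beside these genes, and the sets share genes. The neutrophil list holds Cxcr2 and Csf3r, and the macrophage list holds Csf1r, all described above as receptor genes. The counts of called markers stand beside 10.1% of all tested genes called higher and 11% called lower (edgeR, adjusted p under 0.05). The summed level of 19 neutrophil markers was 2716 and 2695 CPM in KO and 1061 and 1086 CPM in WT, 2.52-fold higher, with 13 of 19 called higher and 0 lower (0 lower also at an unadjusted p under 0.05 and by DESeq2 and limma-voom). All 19 were listed in the tables, among them S100a8 at 641 and 647 CPM in KO and 149 and 158 CPM in WT. S100a9 stood at 472 and 473 CPM in KO and 114 and 111 CPM in WT. Each of these 2 genes was 4.20-fold higher, and a sum weighs such abundant genes more than scarce ones. The sum of 10 T cell markers was 2215 and 2197 CPM in KO and 3190 and 3245 CPM in WT, with 7 of 10 lower and Cd8a at 239 and 248 CPM in KO and 472 and 455 CPM in WT. The sum of 15 monocyte and macrophage markers was 21731 and 22260 CPM in KO and 20929 and 21772 CPM in WT, ranges that overlap, with 3 of 15 higher and 3 lower. Dendritic cell markers summed to 575 and 594 CPM in KO and 393 and 377 CPM in WT (4 of 10 higher, 1 lower). Mast cell and basophil markers, of which Fcer1a, Ms4a2 and Gata2 were not listed, summed to 151 and 129 CPM in KO and 71.2 and 75.5 CPM in WT (2 of 3 tested higher), with the mast cell protease gene Cpa3 at 120 ± 11.9 CPM in KO and 58.8 ± 1.67 CPM in WT (SD, n = 2 each).

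**Figure D5:**
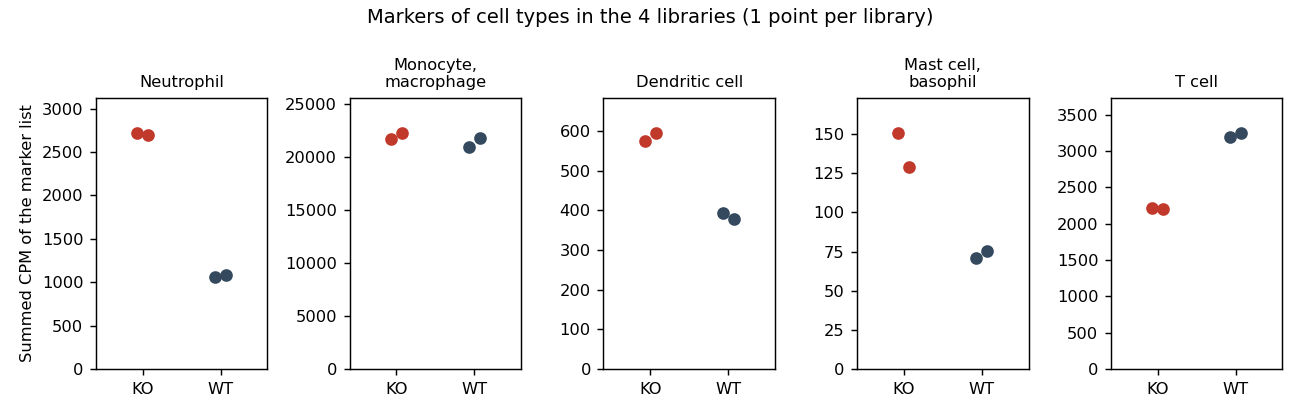
Summed TMM-scaled CPM (y axes from 0, a scale per panel) of 5 marker lists, with 1 point per library and KO left of WT. Neutrophil markers stand at 2716 and 2695 CPM in KO and 1061 and 1086 CPM in WT, and T cell markers are lower in KO, while macrophage markers overlap between the groups.

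On the scale of CPM, the rises of Csf1, Cxcl3 and Cxcl2 (1.87-fold, 1.55-fold and 1.34-fold) were smaller in size than that of the summed neutrophil markers (2.52-fold) and larger than that of the summed macrophage markers (1.03-fold). Other marker sums moved as well. Mast cell and basophil markers were 1.90-fold, dendritic cell markers 1.52-fold, B cell markers 2.21-fold and stromal and epithelial markers 1.16-fold higher. T cell and NK cell markers stood at 0.69 and 0.36 times the WT level. What part any of these marker signals had in the rises of Csf1, Cxcl3 and Cxcl2 was not tested.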

How the data were processed

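Bulk RNA-seq libraries of sorted ovalbumin-specific CD8 tumour-infiltrating lymphocytes, 2 labelled KO and 2 labelled WT, were read from 1 deposited table each. RNA was extracted with Trizol and libraries were made by BGI Genomics, per the labels' protocols. Per the submitters' processing notes, featureCounts, Bowtie2, Trim Galore 0.4.4, DESeq2 and edgeR were used with the build mm10, in roles that are not stated. No source used here gives the annotation, strandedness, read length or counting settings. The authors deposited raw counts of reads for each gene (per the file headers), with a smallest sum over the libraries of 20. FPKM values were deposited beside the counts, per the file headers, and served only to compare genes within a library; for 98.3% of 10703 genes they imply the merged exon length of GENCODE M21 (within 0.1%), and their scaling factor was 1.01 times the summed counts in WT and 1.06 times in KO libraries, so groups were compared in CPM.

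Differences were tested by edgeR 4.0.16 under R 4.3.3 (TMM; robust quasi-likelihood; filterByExpr at its defaults of 10 for a count and 15 for a total, which removed 724 genes), with Benjamini-Hochberg adjustment over 13358 genes and a threshold of 0.05. The test was checked on simulated data. Standard errors were derived from F statistics, and ± is the SD over 2 libraries unless SE is named. Alternatives were other scalings, filters, a replicate block, leaving out each library or mitochondrial genes, DESeq2 1.42.0, limma-voom (limma 3.58.1) and a threshold of 0.1. Within each group the libraries differed beyond sampling noise (chi-square per degree of freedom 9.83 in KO and 7.50 in WT). Promoters are from RefSeq (GRCm38.p6), and 7 of 9 members matched, the exceptions being Cxcl16 and Csf2rb.

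Members and lists were chosen with earlier results of these data known. Named were the 9 members, up to 6 called genes of each list by p, the receptor genes Cxcr2, Cxcr6, Csf1r and Csf3r, Il1b, defining markers, and the 3 genes nearest to the members with the smallest p in each direction. For Csf2ra, the member with the smallest p among the lower ones, these were Acvr1, Rnf13 and Ddx5 (745 of 10031 genes within a distance of 0.1). B cell markers summed to 16.4 and 14.1 CPM in KO and 6.92 and 6.88 CPM in WT, NK cell markers to 75.8 and 74.4 CPM in KO and 208 and 213 CPM in WT, and stromal and epithelial markers to 653 and 719 CPM in KO and 615 and 566 CPM in WT. The depth sets the precision: genes of low count, such as Csf2, have wide intervals.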

Additional observations from a re-analysis of the deposited data

How the results depend on the processing

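Of 126 values of the 9 members under the alternatives, 112 kept their direction and their side of the threshold, among them all for Csf1, Cxcl2 and Cxcl3. The values at a threshold of 0.1 come from the main fit, so their directions and any call already made could not change. With library totals alone, Cxcl1 turned to 0.030 and Csf2ra to 0.0038 on the log2 scale. Csf2rb (0.26), Csf2rb2 (0.38) and Cxcl16 (0.23) passed there, giving 6 members called higher. Genes called higher over the whole table numbered 2105, and 7 genes of the pathway lists were called lower. This setting leaves out the TMM factors, which were 1.031 and 1.029 in KO and 0.9725 and 0.9693 in WT libraries. The median log2 fold change over all tested genes was 0.082 there, against -0.004 with TMM. Why the factors differ between the groups was not tested. Csf2rb2 also passed with RLE factors (0.30), with a mean CPM of at least 1 (0.30), which tests fewer genes, and with a threshold of 0.1 (0.30), where Csf2rb (0.18) passed too and members called higher numbered 5. With 1 library left out, log2 fold changes ran from -0.28 to 0.0048 for Csf2, from 0.086 to 0.27 for Csf2rb and from 0.15 to 0.46 for Csf2rb2, members called higher from 3 to 5, genes of the pathway lists from 9 to 15 higher and from 5 to 12 lower, and genes over the whole table from 714 to 1605 higher and from 831 to 1787 lower; for the pathway lists and the whole table the lowest counts came without WT replicate 1 (over the whole table, 837 higher and 922 lower without WT replicate 2), and the cause was not tested. With the replicate number as a block, Csf2rb2 was at 0.30 and passed, and no other member changed its call. Same-numbered libraries did not deviate together across genes (correlation of deviations -0.044). The labels do not say what the replicate number marks, and this correlation cannot show it. With 2 libraries a group, Cxcl16, Csf2rb and Csf2rb2 lay on either side of the threshold by setting, and Csf2 rests on under 200 counts a library.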
